A study of Mus musculus with 6 samples.

Results

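The TGF-beta ligand genes and their readouts were examined in mouse mammary tumor cells as a set of 10 genes: the ligand genes Tgfb1, Tgfb2, Tgfb3 and Inhba, the TGF-beta-induced matrix gene Tgfbi, the inhibitory Smad gene Smad7, and the inhibitor of DNA binding genes Id1, Id2, Id3 and Id4. They were taken by name, out of 36799 genes or unnamed transcripts with a probe on the array, through the accession printed for each probe. The set held 11 probes, with 2 for Tgfb2 and 1 for each other gene. All 10 genes passed the filter on dim probes, and both channels of all 6 arrays exceeded the background for every one of the 11 probes.

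The cells came from late carcinomas of MMTV-PyMT mice, in which the polyomavirus middle T oncogene is driven by the mouse mammary tumor virus promoter. RANK+/+ or RANK-/- carcinoma cells were transplanted into the mammary fat pad of C57BL/6 mice of the same strain, and live CD45- cells, which lack the leukocyte surface protein CD45, were sorted from the grown tumors. Tnfrsf11a encodes RANK, a receptor of the tumor necrosis factor family that activates NF-kB. Both groups carried the oncogene, no treatment was named for either, and the hosts were young adult females per the study's methods. The hosts were C57BL/6 mice for both groups, so the genotype named in the labels is that of the transplanted cells, while stroma of the host can pass a CD45- sort. Each two-color array received 1 RNA of each genotype. The 6 arrays held 3 pairs of RNAs with 2 technical arrays, A and B, for each pair. The RANK-/- RNA was labeled with Cy5 in pair 1 and with Cy3 in pairs 2 and 3. The submitters listed sets of 3 biological replicates but named RANK-/- for both sets, so groups and directions rest on the channel labels alone. Dye swaps were described in the study's methods, whereas the labels give arrays A and B of a pair the same dyes. Whether each RNA was a tumor of its own was not given, so that p-values measure the spread between these pairs.

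TGF-beta ligands are secreted in a latent form and, once released, bring together a type II and a type I receptor, which phosphorylates Smad2 and Smad3. Bone morphogenetic proteins (BMPs) use related receptors and Smad1 and Smad5, and both arms share Smad4. Smad7 and Smad6 are induced by the pathway and block it. The Id genes are classical BMP targets that TGF-beta can raise or repress depending on the cell, and Id proteins bind E proteins such as those encoded by Tcf3, Tcf4 and Tcf12 and keep them off DNA. In the mammary gland TGF-beta restrains epithelial growth, and in carcinomas it is known for its part in matrix production, invasion and immune suppression.

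The label was checked first. For Tnfrsf11a the RANK-/- signal exceeded the RANK+/+ signal of every pair, with log2 ratios of RANK-/- over RANK+/+ of 2.03, 1.15 and 1.76 (mean 1.65 ± 0.45 SD, n = 3 pairs, limma adjusted p = 0.999). With all arrays fitted and the pair as a random block its adjusted p was 0.0196. The measured message therefore went against the label. The part of the gene removed in this allele was not given in the sources used here, and a probe outside that part would check nothing, so every direction below is that of the channel labeled RANK-/-. The epithelial markers Epcam, Krt8 and Krt18 exceeded the background on 6 of 6 arrays in either channel. Signals of other cell types were present too. Both channels exceeded the background on 6 of 6 arrays for all endothelial and fibroblast markers, for the leukocyte genes Cd52 and Coro1a, the macrophage genes Cd14, Cd68, Csf1r and C1qa, the T cell genes Cd3e and Cd4 (brighter probe) and the neutrophil genes S100a8 and Csf3r. Ptprc, which encodes CD45, did so on 5 of 6 arrays in the RANK-/- channel and 4 of 6 in the RANK+/+ channel, and the neutrophil receptor gene Cxcr2 on 0 and 1. The T cell genes Cd3d, Cd3g and Cd8a did not pass the filter on dim probes. In the RANK-/- and RANK+/+ channels Cd3d exceeded the background on 2 and 3 arrays, Cd3g on 3 and 3, and the Cd8a probes on at most 0 and 2. The dimmer Cd4 probe did so on 1 and 3.

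None of the 10 genes passed the test between the channels labeled RANK-/- and RANK+/+. By limma with Benjamini-Hochberg adjustment over 22504 genes, 0 of the 10 were called, as were 0% of all genes, and the limma adjusted p was 0.999 for each of the 10. At an unadjusted p under 0.05 the count was 1 of 10, namely Id2, against 2.87% of all genes. A rank product test called 0 of the 10 and 0.0978% of all genes. Id1 and Id2 were lower in all 3 pairs in the channel labeled RANK-/-, a count of 2 of 10 beside 9.65% of all genes, and 0 of 10 were higher in all pairs, beside 9.93%. With median centering of the arrays in place of loess, 3 were lower and 1 was higher, beside 15.4% and 3.81%. Genes with 1 sign in all pairs, in either direction, made up 19.6% of all genes. A difference of at least 2-fold the same way in every pair was seen for 0 of 10 and for 0.0889% of all genes. For Id1 and Id2 the 3 RANK-/- levels all lay below the 3 RANK+/+ levels, beside 3.82% of all genes, and the reverse order was seen for 0 of 10, beside 3.66%.

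For most of these genes the pairs lay far from each other. The median SD of the log2 ratio between pairs was 0.98 for the 10 genes and 0.33 for all genes tested. Such a spread was not particular to the set. Of the lists described below, it was 1.22 for epithelial, 0.96 for fibroblast and 0.96 for proliferation markers. It was 0.84 for the ligand list, 0.59 for all pathway lists together and 0.36 for endothelial markers. Arrays A and B of a pair, in contrast, differed little, with technical SDs between 0.0085 and 0.081 over the 10 genes. Both arrays of a pair had the same dyes, and pair 1 alone had the RANK-/- RNA in Cy5. A dye effect and a difference of pair 1 from pairs 2 and 3 therefore cannot be told apart. Pairs 2 and 3 had the same dye arrangement as each other. A difference of at least 2-fold in either direction was measured for 2 of the 10 genes in pair 1, 1 in pair 2 and 7 in pair 3, beside 6.5%, 4.82% and 7.92% of all genes.

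**Figure D1:**
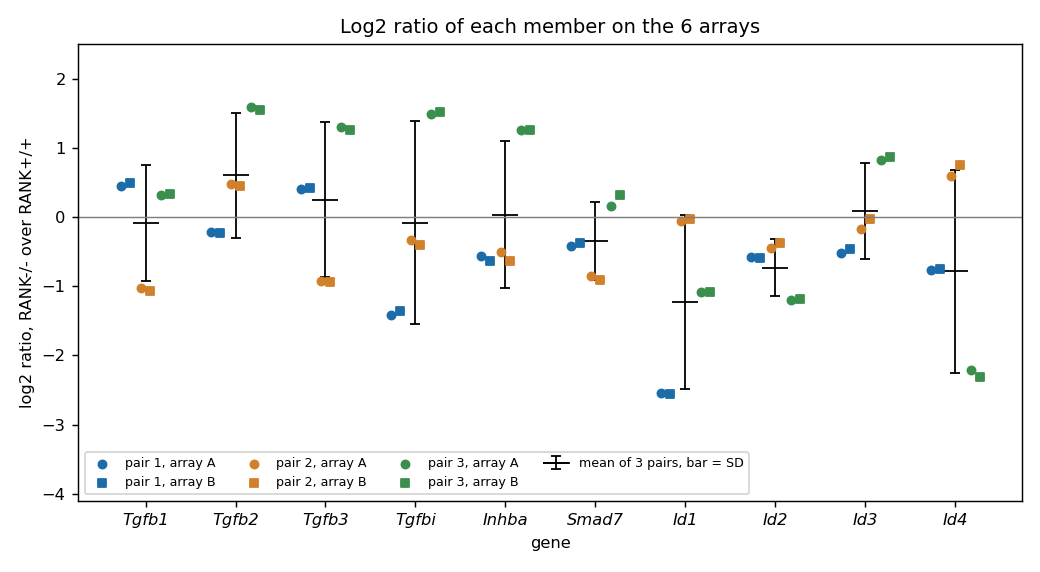
Log2 ratio of RANK-/- over RANK+/+ for each of the 10 genes, with circles for array A and squares for array B of each pair, a dash for the mean of 3 pairs and a bar for the SD. The technical arrays of a pair lie close together, while the pairs lie apart, and the points of Id1 and Id2 are below 0 in all 3 pairs.

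Id2 was the member with the smallest spread between pairs. It encodes an Id protein that takes part in mammary epithelial differentiation. Its normalized log2 signals were 12.67, 12.78 and 12.45 in the RNAs labeled RANK-/- and 13.26, 13.19 and 13.64 in those labeled RANK+/+, in the order of pairs 1, 2 and 3. The groups did not overlap, and the highest RANK-/- RNA lay below the lowest RANK+/+ RNA. The log2 ratios were -0.58, -0.41 and -1.19, that is 66.8%, 75.1% and 43.7% of the RANK+/+ level. The mean was -0.73 ± 0.41 (SE 0.21, n = 3 pairs). Of the 10 it was the gene with an unadjusted limma p under 0.05, and it did not pass the test over all genes.

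Id1, which encodes the Id protein best known as an immediate BMP target, had the lowest mean of the set. Its log2 signals were 9.57, 10.49 and 9.85 in the RNAs labeled RANK-/- and 12.13, 10.53 and 10.93 in those labeled RANK+/+. The groups did not overlap, but the RANK-/- and RANK+/+ RNAs of pair 2 were almost level, and the RANK+/+ RNA of pair 1 stood above all the others. The log2 ratios of -2.55, -0.04 and -1.08 left 17.1%, 97.0% and 47.2% of the RANK+/+ level, with a mean of -1.23 ± 1.26 (SE 0.51, n = 3 pairs). Without pair 1 the mean was -0.56, and without pair 2 it was -1.82. In pair 1 the neutrophil transcripts S100a8 and S100a9, chosen after their values were seen, were lower in the RANK-/- channel too, with log2 ratios of -3.99 and -4.12, against 0.07 and -0.04 in pair 2 and -0.11 and -0.25 in pair 3. Ptprc stood at -0.93, 0.10 and 0.14. Of 6 neutrophil markers 3 passed the filter, S100a8, S100a9 and Csf3r. Csf3r went the other way in pair 1, with log2 ratios of 0.42, -0.03 and -0.05. The summed log2 signal of the 3, led by Csf3r, ranged from 15.43 to 15.81 in the RANK-/- RNAs and from 15.48 to 16.01 in the RANK+/+ RNAs. The part of these transcripts in the Id1 ratio was not tested.

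Id3 and Id4 did not keep 1 direction. Id3, whose product shares much of its activity with that of Id1, had log2 signals of 11.54, 10.77 and 10.86 in the RANK-/- RNAs and 12.03, 10.86 and 10.01 in the RANK+/+ RNAs, and the groups overlapped. Its log2 ratios were -0.49, -0.10 and 0.85 (mean 0.09 ± 0.69 SD, n = 3 pairs), and the mean was -0.11 with median centering. Id4, a marker of basal cells of the mammary epithelium, had log2 signals of 6.98, 8.57 and 7.44 in the RANK-/- RNAs and 7.75, 7.90 and 9.70 in the RANK+/+ RNAs. The RANK+/+ RNA of pair 3 was the highest of the 6, and the groups overlapped. The Id4 log2 ratios of -0.76, 0.67 and -2.26 (mean -0.78 ± 1.46 SD, n = 3 pairs) turned sign between pairs, and the mean was -0.05 without pair 3 and -1.51 without pair 2.

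**Figure D2:**
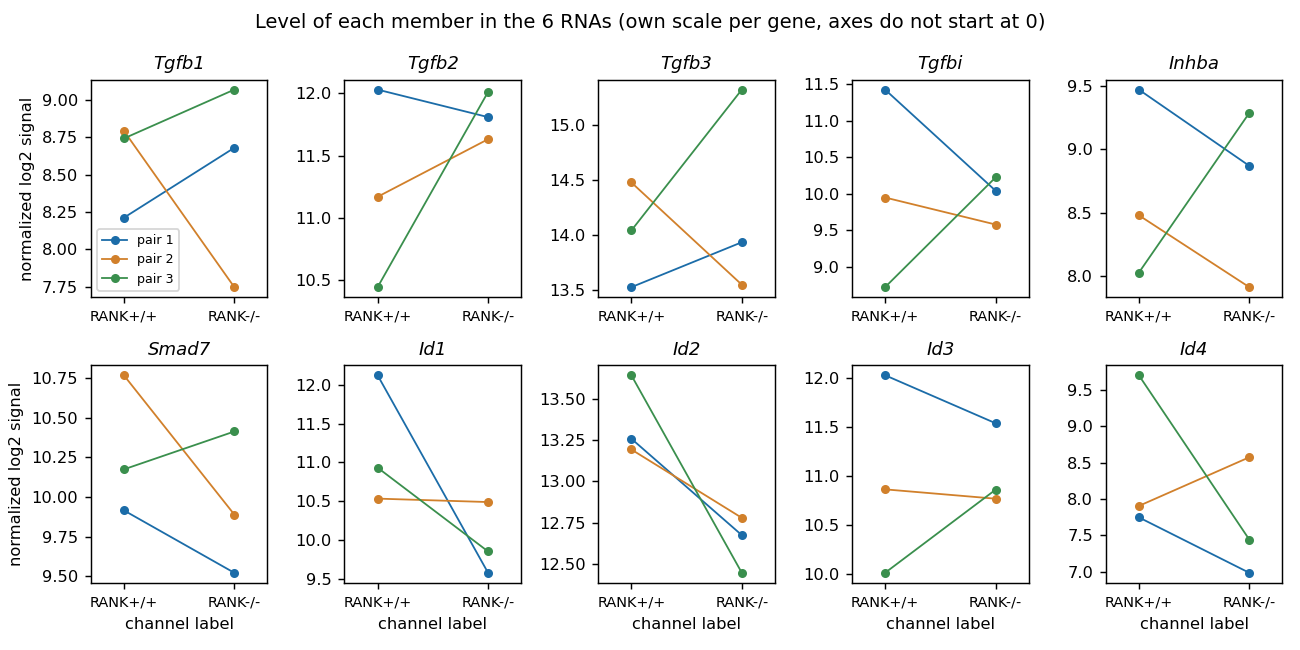
Normalized log2 signal of each gene in the RNA labeled RANK+/+ and in that labeled RANK-/-, with a line joining the RNAs of a pair and an axis for each gene that does not start at 0. Lines slope down in all pairs for Id1 and Id2 and run in both directions for the other 8 genes.

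The promoters of the Id genes are shown because Id transcription is a direct readout of BMP-activated Smads. RefSeq promoter sequences (GRCm38.p6) were matched for 7 of the 10 genes, with none for Id1, Tgfb3 and Smad7. The 250 bases before the annotated start of Id2, at chr12:25096093-25096342 on the minus strand, of Id3, at chr4:136143572-136143821 on the plus strand, and of Id4, at chr13:48260866-48261115 on the plus strand, are printed 5′ to 3′, and capitals mark the GC-rich element GGCGCC bound by BMP Smads and the Smad box GTCT or its reverse complement AGAC.
Id2: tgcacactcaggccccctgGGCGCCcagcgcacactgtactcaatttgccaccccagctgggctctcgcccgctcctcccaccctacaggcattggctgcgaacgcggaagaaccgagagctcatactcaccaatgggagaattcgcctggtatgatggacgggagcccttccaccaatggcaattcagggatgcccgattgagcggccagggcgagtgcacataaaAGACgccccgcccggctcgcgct
Id3: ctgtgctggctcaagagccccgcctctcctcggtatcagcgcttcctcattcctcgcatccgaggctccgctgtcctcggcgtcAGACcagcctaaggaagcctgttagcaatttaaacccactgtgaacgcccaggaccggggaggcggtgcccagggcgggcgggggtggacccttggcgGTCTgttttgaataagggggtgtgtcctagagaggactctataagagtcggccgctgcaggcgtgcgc
Id4: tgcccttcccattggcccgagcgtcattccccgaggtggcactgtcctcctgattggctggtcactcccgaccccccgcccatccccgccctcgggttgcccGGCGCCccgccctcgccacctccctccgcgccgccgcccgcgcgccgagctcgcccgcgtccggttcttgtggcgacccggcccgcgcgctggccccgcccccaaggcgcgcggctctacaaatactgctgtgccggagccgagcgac
GGCGCC, which reads the same on both strands, began 231 bases before the Id2 start and 148 bases before the Id4 start and was not among these letters of Id3. It lay in 9.59% of 32851 promoter windows of the same length. GTCT on either strand, which cannot overlap GGCGCC, was found 1 time for Id2, 2 times for Id3 and 0 times for Id4, and lay in 82.9% of all windows. A match describes the letters only, and its part in the ratios was not tested. Of the 7 matched genes Tgfbi also held GGCGCC, and Id2 and Id4, which both held it, differed in direction in pair 2.

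Among the ligand genes, Tgfb1 and Tgfb3 shared a pattern of signs, above 0 in pairs 1 and 3 and below 0 in pair 2. With median centering Tgfb1 was at -0.18 in pair 3, where the median of all genes was -0.39. Tgfb1, which encodes the ligand most studied in tumors, had log2 signals of 8.68, 7.75 and 9.07 in the RANK-/- RNAs and 8.21, 8.79 and 8.74 in the RANK+/+ RNAs. The RANK-/- RNA of pair 2 was the lowest of the 6, and the groups overlapped. The log2 ratios were 0.47, -1.05 and 0.33, with a mean of -0.08 ± 0.84 (SE 0.35, n = 3 pairs).

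Tgfb3, the ligand raised in the mammary gland when milk is no longer removed, had log2 signals of 13.93, 13.55 and 15.32 in the RANK-/- RNAs and 13.53, 14.48 and 14.04 in the RANK+/+ RNAs. The RANK-/- RNA of pair 3 was the highest of the 6, with overlap among the rest. The log2 ratios were 0.41, -0.93 and 1.28 (mean 0.25 ± 1.11 SD, n = 3 pairs), and the mean was -0.12 with median centering.

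Tgfb2, which encodes the ligand that depends on betaglycan for receptor binding, had the highest mean of the set. Its log2 signals were 11.81, 11.63 and 12.01 in the RANK-/- RNAs and 12.03, 11.17 and 10.44 in the RANK+/+ RNAs. The RANK-/- RNAs lay close together and within the upper part of the RANK+/+ range, while the RANK+/+ RNAs ran from the highest to the lowest of the 6. The log2 ratios were -0.22, 0.46 and 1.57 (mean 0.60 ± 0.90 SD, n = 3 pairs). The other Tgfb2 probe gave 0.42, 0.40 and 1.47, so that the probes disagreed in sign in pair 1. With median centering the ratios of the brighter probe were 0.03, 0.18 and 0.95. The mean was 0.12 without pair 3 and 1.01 without pair 1, and without pair 2 it was 0.67, below that of Tgfb3.

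Inhba encodes the subunit that forms activin A, which signals through Smad2 and Smad3 as TGF-beta does. Its log2 signals were 8.87, 7.92 and 9.29 in the RANK-/- RNAs and 9.47, 8.48 and 8.03 in the RANK+/+ RNAs, and the groups overlapped throughout. The log2 ratios of -0.60, -0.57 and 1.26 averaged 0.03 ± 1.06 (SE 0.44, n = 3 pairs), and without pair 3 the mean was -0.58.

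With loess, the readouts of TGF-beta signaling in the set had the signs of Inhba in the 3 pairs. Over the 6 RNAs the level of Tgfbi went with that of Inhba (Pearson r = 0.86), while that of Smad7 did not (r = -0.06). Tgfbi, a matrix protein named for its induction by TGF-beta, had log2 signals of 10.04, 9.58 and 10.22 in the RANK-/- RNAs and 11.43, 9.95 and 8.72 in the RANK+/+ RNAs. The RANK+/+ RNAs held both the highest and the lowest of the 6 levels. Its log2 ratios of -1.39, -0.37 and 1.51 (mean -0.08 ± 1.47 SD, n = 3 pairs) were at least 2-fold in opposite directions in pairs 1 and 3.

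Smad7, the inhibitory Smad that acts on the TGF-beta receptor, had log2 signals of 9.52, 9.89 and 10.41 in the RANK-/- RNAs and 9.92, 10.77 and 10.17 in the RANK+/+ RNAs. The groups overlapped. The log2 ratios were -0.39, -0.88 and 0.24 (mean -0.34 ± 0.56 SD, n = 3 pairs), and all 3 were below 0 with median centering. Its pair 3 ratio was then -0.34, where the median of all genes was -0.39. The mean was -0.08 without pair 2 and -0.64 without pair 3. By sign over the pairs, with loess, Tgfbi, Inhba, Smad7 and Id3 formed 1 group of 4, Tgfb1 and Tgfb3 a group of 2, Id1 and Id2 a group of 2, and Tgfb2 and Id4 stood alone. The levels over the 6 RNAs grouped otherwise. Smad7 had a Pearson r of -0.13 with Tgfbi and -0.43 with Id3, but 0.64 with Tgfb3 and 0.47 with Tgfb1. Tgfb2 had an r of 0.81 with Tgfbi and 0.80 with Id3.

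The cell mix of the sorted fraction moved between pairs as well. In bulk RNA, fewer cells of a type and less RNA per cell cannot be told apart. The summed signal of all 8 epithelial markers had log2 ratios of 0.28, -1.03 and 1.32, and ranged from 17.09 to 18.78 in the RANK-/- RNAs and from 17.46 to 18.12 in the RANK+/+ RNAs. Its signs were those of Tgfb1 and Tgfb3, as were the signs of the endothelial sum (0.05, -0.17 and 0.58) and of the sum of 6 of 8 macrophage markers (0.40, -0.07 and 1.12). Krt18 led the epithelial sum, with log2 ratios of 0.45, -1.34 and 1.65. In pair 1 Krt8 (-0.41), Krt19 (-1.22) and Cldn4 (-0.30) were below 0, and Epcam, Cldn3, Cdh1 and Elf3 were above. Kdr led the endothelial sum, with -0.001, -0.012 and 0.52. Emcn, Tek and Vwf were also below 0 in pair 1, and Cdh5, Cldn5, Esam and Pecam1 were above. Cd14 led the macrophage sum, with log2 ratios of 0.64, -0.07 and 1.27. In pair 1 C1qa (-0.70), Csf1r (-0.65), Cd68 (-0.26) and Adgre1 (-0.28) were below 0, and Mrc1 (0.41) was above. The 9 fibroblast markers summed to 0.17, 0.77 and 2.17, with ranges of 17.13 to 17.82 and 15.65 to 17.16. The sum of 4 of 5 leukocyte markers stood at -0.61, 0.24 and 0.75, the signs of Tgfb2. All 5 of these sums were highest in pair 3, as were the ratios of Tgfb2, Tgfb3, Tgfbi, Inhba, Smad7 and Id3. The 7 basal markers summed to -0.77, -0.29 and -0.05, below 0 in all pairs as Id1 and Id2 were. By the probe that stood for each gene, 0 of the 7 were below 0 in all pairs. The probes of Trp63 disagreed, with 0.28, -0.02 and 0.17 by the brighter and -1.45, -1.07 and -0.50 by the other. Krt5 stood at -1.41, -2.13 and 0.33 and Krt14 at -1.81, 0.12 and -0.44. Oxtr was above 0 in all pairs, with 1.84, 0.74 and 0.08. The neutrophil sum was also below 0 in all pairs, with -0.20, -0.02 and -0.06, and the sum of 2 of 6 T cell markers, Cd3e and Cd4, was at most 0.09 in any pair. Cd3d and Cd3g, too dim for the filter, were not in this sum. Cd3d stood at -1.19, 0.21 and 0.01 and Cd3g at -1.16, 0.34 and -0.01, so the flat sum does not speak for them. The summed signal of 7 of 8 proliferation markers, with Aurkb near background, stood at -0.75, 0.88 and -0.90, the signs of Id4, with ranges of 13.92 to 14.93 and 14.05 to 14.91. The part of the cell mix in the ratios of these genes was not tested.

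**Figure D3:**
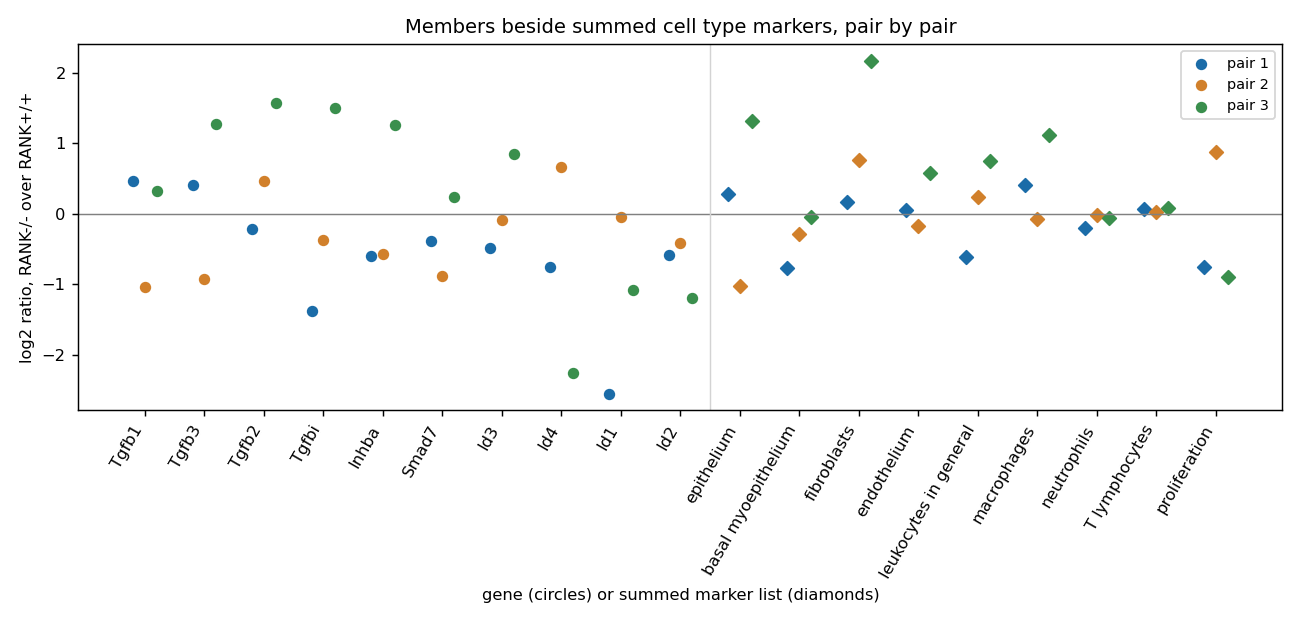
Log2 ratio of RANK-/- over RANK+/+ in each pair for the 10 genes (circles) and for the summed signal of 9 lists of cell type and proliferation markers (diamonds), colored by pair. Pair 3 is the highest point for the epithelial, fibroblast, endothelial, leukocyte and macrophage sums, and the basal and neutrophil sums lie below 0 in all 3 pairs.

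In the wider pathway, 115 genes of 8 lists were on the array and 100 passed the filter. None was called by limma or by the rank product, and 10 of 100 had an unadjusted limma p under 0.05, beside 2.87% of all genes. Of the 100, 11 were higher and 12 lower in all 3 pairs, beside 9.93% and 9.65% of all genes (7 and 21 with median centering, beside 3.81% and 15.4%), and the median of their mean log2 ratios was 0.03, beside 0.004 for all genes.

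Of 12 receptor genes tested, 4 were above and 1 was below 0 in all pairs, with a median of mean log2 ratios of 0.06. Tgfbr3, which encodes the co-receptor betaglycan that presents TGF-beta2, had log2 ratios of 1.22, 0.69 and 1.53 (mean 1.15 ± 0.43 SD, n = 3 pairs), and its RANK-/- and RANK+/+ levels did not overlap. Tgfbr1, the type I receptor, stood at 0.38, 0.23 and 0.97, also without overlap, and Tgfbr2, the type II receptor, at 0.12, 0.21 and 1.27 with overlap. Their means of 0.52 and 0.53 were 0.23 and 0.039 by the other probe of each gene. Acvrl1, the endothelial type I receptor ALK1, named after its values were seen, had ratios of 0.66, 0.14 and 1.39. With median centering the pair 2 ratios of Tgfbr2 and Acvrl1 were -0.12 and -0.11, where the median of all genes was -0.19. The BMP type I receptor gene Bmpr1a was the 1 receptor gene below 0 in all pairs, with -0.39, -0.28 and -0.14.

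The BMP targets held 4 of 10 tested genes below 0 in all pairs and 0 above, with a median of mean log2 ratios of -0.41, and in all 4 the RANK-/- levels lay below the RANK+/+ levels, beside 9.65% and 3.82% of all genes. With median centering 15.4% of all genes were below 0 in all pairs. They were Id1, Id2, Smad6 and Msx2, so that members of the set make up part of this count. Smad6, the inhibitory Smad that acts mainly on the BMP arm, had ratios of -0.43, -0.41 and -0.59 (mean -0.48 ± 0.10 SD, n = 3 pairs). Msx2, a homeobox gene induced by BMP and named after its values were seen, had ratios of -0.92, -0.60 and -0.37 (mean -0.63 ± 0.28 SD, n = 3 pairs), with a mean of -1.02 from Agilent's processed signals. Id3, Id4, Smad7 and the other 3 tested genes of the list, Hey1, Msx1 and Dlx5, had mixed signs, and 3 of 13 were too dim to test. Hey1, named after its values were seen, had ratios of 2.27, -0.32 and 1.01 (mean 0.99 ± 1.29 SD, n = 3 pairs), the highest mean of the list. The means of Msx1 and Dlx5 were 0.24 and -0.28.

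Of 25 genes tested from the ligand list, which also held Bmp1, a gene for a protease, 1 was above and 3 were below 0 in all pairs. The median of their mean log2 ratios was 0.02. Bmp4, which encodes a BMP ligand and was named after its values were seen, had log2 ratios of -0.65, -1.13 and -0.47 (mean -0.75 ± 0.34 SD, n = 3 pairs), with overlapping levels. Gdf15, a stress-induced ligand of the family, stood at -2.33, -0.08 and -0.68, lowest in pair 1 as Id1 was. Inha, which encodes the inhibin alpha subunit and was also named after its values were seen, stood at -0.73, -0.09 and -0.86, and its mean of -0.56 was -1.27 from Agilent's processed signals. Inhbe was the ligand gene above 0 in all pairs, by no more than 0.08 in any. From Agilent's processed signals its ratios were -0.05, 0.04 and 0.24, and with a normexp offset of 0 they were 0.09, 0.13 and 0.20.

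The signal-transducing Smads had ratios on both sides of 0. Those of Smad2 were -0.64, 0.65 and -0.15, those of Smad3 were -0.10, 0.45 and 0.19, and those of the shared Smad4 were 0.33, -0.49 and -0.43. Smad1 had 0.36, -0.76 and 0.10, and Smad5 had 0.07, -0.25 and -0.35. Of 15 Smads and regulators tested, Smad6 was the 1 gene with the same sign in all pairs.

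**Figure D4:**
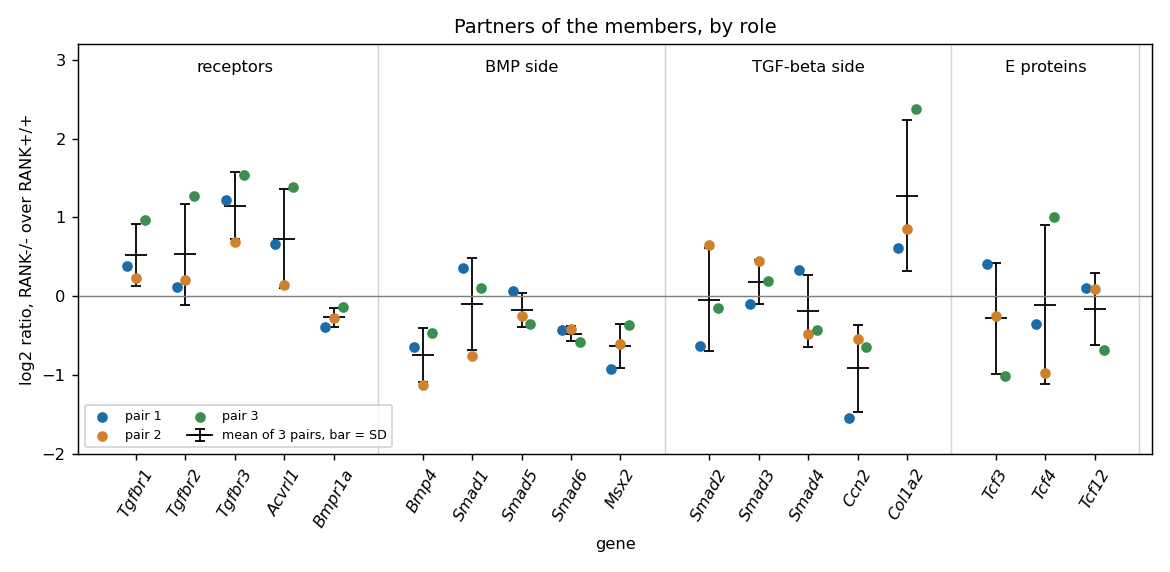
Log2 ratio of RANK-/- over RANK+/+ for partners of the 10 genes by role, with a point for each pair, a dash for the mean of 3 pairs and a bar for the SD. Tgfbr1, Tgfbr2, Tgfbr3, Acvrl1 and Col1a2 have 3 points above 0, Bmpr1a, Bmp4, Smad6, Msx2 and Ccn2 have 3 points below 0, and the other genes have points on both sides.

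Among TGF-beta targets, 4 of 19 tested were above and 2 below 0 in all pairs, with a median of mean log2 ratios of 0.21. Those above were Col1a1, Col1a2, Ltbp2 and Cdkn1a. Cdkn1a, named after its values were seen, had ratios of 1.08, 1.07 and 0.23, and its levels did not overlap. Col1a2, a collagen chain that also counts among the fibroblast markers, had ratios of 0.61, 0.85 and 2.38, in the order of the summed fibroblast markers. Ccn2, a matricellular target of TGF-beta, had ratios of -1.55, -0.55 and -0.65, and Snai2, a transcription factor of epithelial-mesenchymal transition named after its values were seen, had -0.36, -0.48 and -0.58.

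Upstream of the receptors, 1 of 12 genes for latent TGF-beta binding and activation was above and 1 below 0 in all pairs. Ltbp2, a latent TGF-beta binding protein of the matrix, had ratios of 1.49, 0.52 and 0.06, and -0.81 in pair 3 with median centering. Lrrc32, which encodes the surface protein GARP that holds latent TGF-beta, had -0.25, -1.37 and -0.50. Of 11 secreted antagonists, 2 were above and 1 below 0. The BMP antagonist gene Grem1 had 0.84, 0.10 and 0.81, but its RANK+/+ signal exceeded the background on 2 of 6 arrays only, so that the size rests on the background step. Its mean was 0.58, against 1.46 with a normexp offset of 0 and 2.29 from Agilent's processed signals. Sostdc1, which encodes a BMP and Wnt antagonist, had -2.80, -0.63 and -0.40.

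The E protein genes, whose products the Id proteins bind, had no common direction. Ratios were 0.40, -0.25 and -1.01 for Tcf3, -0.35, -0.98 and 1.00 for Tcf4 and 0.10, 0.09 and -0.69 for Tcf12.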

How the data were processed

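SurePrint G3 Mouse two-color arrays were scanned by the authors, who used Agilent Feature Extraction 10.7.3.1 to read the spots. The deposited tables hold, per the file headers, the median intensity of each spot and of its local background in both channels, not normalized. The authors also deposited a table of normalized log2 ratios, used as an alternative. Its columns correlated positively with RANK-/- over RANK+/+ on every array.

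Here intensities were corrected with normexp (offset 50), normalized by loess within and Aquantile between arrays (limma 3.58.1, R 4.3.3), and turned to RANK-/- over RANK+/+ by the dyes in the labels. Arrays A and B were averaged to 3 pair ratios. Control spots and outlier flags were left out. The filter kept probes that, in the channel of 1 genotype, exceeded the background on arrays A and B of 2 or more pairs (54.3% of 55681), and the brightest probe stood for a gene. Levels are log2 signals of 1 probe and are not compared between genes. Probe accessions were named through RefSeq (28026 probes matched). Ratios were tested with limma's lmFit and eBayes, two-sided, with Benjamini-Hochberg adjustment over 22504 genes at 0.05; the script was tested on simulated data. An exact sign-flip test of 3 pairs cannot go below p = 0.25. The number of arrays limits the precision, and no count depth applies.

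The 10 genes, the pathway lists and the marker lists were chosen with earlier results of these data known. Named genes were all 10, Tnfrsf11a, direct partners (1 of them is not reported here) and, from each list, the same-sign genes of highest and lowest mean or of at least 2-fold in all pairs, except where the text says a gene was named after its values were seen. Arrays lay on 1 slide, and the labels show no dye swap within a pair, although the study's methods describe dye swaps. Each RNA of a pair shares its array with the other, which pairs them by design. The deviations of same-numbered RNAs from their group means correlated at -0.03, -0.22 and -0.04. Alternatives covered background, normalization, filter, probe choice, technical arrays, dye, variance model, test, pairing and each pair left out.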

Additional observations from a re-analysis of the deposited data

How the results depend on the processing

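The count of the 10 genes called was 0 in every alternative run. Over all genes, limma called 298 with the 6 arrays taken as separate replicates, 13 with the pair as a random block and 0 otherwise, and the rank product called 22. Of pathway genes, 5 were called with 6 separate arrays (Tgfbr3, Smad6, Snai2, Bmp4 and Msx2), a fit that counts technical arrays as replicates. With no replicate block, that is with the RNAs unpaired, 0 genes were called, 830 had an unadjusted p under 0.05, and the pairing changed no call. Leaving out each pair gave 0 calls among all genes, pathway genes and the 10.

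With median centering the median of all genes shifted by -0.15 on average relative to loess, and 15.4% of all genes lay below and 3.81% above 0 in all pairs. With this centering the median of all genes was 0.13, -0.19 and -0.39 in pairs 1, 2 and 3, on average -0.15. Median centering turned the means of Tgfb3 (-0.12), Inhba (-0.13), Id3 (-0.11) and Smad3 (-0.041). All of these still lay above that average. The other turned means were Inhba with Agilent's processed signals (-0.041) and with array B alone (-0.0047), Smad3 by its other probe (-0.042), and, with a dye term, Tgfb1 (0.054), Inhba (-0.13), Id3 (-0.057) and Smad1 (0.016). The cause was not tested.

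Leaving out 1 pair at a time moved the mean of Tgfb1 from -0.36 to 0.40, Tgfb2 from 0.12 to 1.01, Smad7 from -0.64 to -0.08, Id4 from -1.51 to -0.05, Tgfb3 from -0.26 to 0.84, Tgfbi from -0.88 to 0.57, Inhba from -0.58 to 0.35, Id3 from -0.29 to 0.38, Smad1 from -0.33 to 0.23, Smad2 from -0.40 to 0.25, Tcf3 from -0.63 to 0.078, Tcf4 from -0.66 to 0.33 and Tcf12 from -0.30 to 0.10. Id1 and Id2 stayed below 0 in every pair under all 7 scalings run and in their mean under every alternative, from -1.82 to -0.56 and from -1.02 to -0.50. Among 37 named genes, the mean of 24, 7 of the 10 among them, moved by over 1.5 times or turned under an alternative other than leaving out a pair, with Id1, Id2 and Id4 not among these. Signals of all 11 probes were above background.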
